A study of Mus musculus with 4 samples.

Results

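YAP is a transcriptional co-activator of the Hippo pathway. The regions described here are narrow YAP peaks of wild-type (WT) mouse epidermis that were also found in epidermis without BMAL1, the core activator of the circadian clock. They were chosen by 2 measured properties: the WT peak was at most 400 bp wide (end minus start), and it overlapped a peak of the Bmal1 knockout (KO) list by 1 bp or more. Of the 36576 WT peaks, 9058 were this narrow and 503 of these met both conditions, which is 1.38% of all WT peaks and 3.51% of all kept ones. Below they are called narrow kept peaks or members. A WT peak that overlaps a KO peak is called kept, and any other WT peak WT-only.

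YAP chromatin immunoprecipitation with sequencing (ChIP-seq) was done on suspended epidermal cells of adult mice, 18 to 25 weeks old and killed at Zeitgeber time 4, which is 4 h after lights on. One group is labelled Bmal1 WT and the other Bmal1 KO, and a protocol text writes Bmal1cKO. The sources used here do not say in which cells the gene was deleted, nor the strain and the sex. Both groups were fixed in 2 steps (Gold fixative, then formaldehyde) and precipitated with the same anti-YAP antibody. Each genotype has 1 list of peaks whose names carry the word pooled, so there is no replicate error, no test was run, and intervals below are exact 95% Clopper-Pearson intervals that cover counting error only. Fewer cells with YAP bound, less YAP bound per cell and a weaker precipitation in 1 of the groups cannot be told apart in such data. As a check of the tissue, all 7 keratinocyte markers looked up (Krt5, Krt14, Trp63, Itga6, Itgb4, Krt1 and Krt10) were the nearest gene of at least 1 WT peak, with 24 peaks at Trp63. Of the genes of the keratinocyte lists 56 of 58 had one, of the genes of other cell types and tissues 34 of 92, and of all protein-coding genes 52.5%.

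YAP does not bind DNA itself. It is brought to DNA by TEAD transcription factors, whose core site reads GGAATG, often beside AP-1 factors, whose site reads TGANTCA. Hippo kinases keep YAP out of the nucleus when cells are crowded or differentiated, and nuclear YAP supports growth and repair in the basal layer of the epidermis. BMAL1 pairs with CLOCK or NPAS2 and binds the E-box CACGTG.

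The sequences that can be shown are promoters, since promoter windows (250 bases before to 50 after a transcription start, from RefSeq, build GRCm38.p6, called mm10) were used in place of the peaks' own bases. The peak's highest point, its summit, lay in such a window for 30 of the 487 members on the chromosomes that have windows. The windows of 7 of these held GGAATG on either strand, and they are shown because this is the site through which TEAD factors recruit YAP. Each line gives the 250 bases before the start, 5′ to 3′ on the strand of the gene, with GGAATG or its reverse complement CATTCC, and CACGTG, in capitals.
Abl1 (chr2:31759689-31759938, plus strand): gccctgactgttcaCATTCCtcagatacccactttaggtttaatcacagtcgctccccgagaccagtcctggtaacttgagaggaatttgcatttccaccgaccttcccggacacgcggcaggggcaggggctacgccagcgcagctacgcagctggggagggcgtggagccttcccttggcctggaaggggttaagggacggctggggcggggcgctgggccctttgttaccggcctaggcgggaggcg
Gm30903 (chr1:157594708-157594957, minus strand): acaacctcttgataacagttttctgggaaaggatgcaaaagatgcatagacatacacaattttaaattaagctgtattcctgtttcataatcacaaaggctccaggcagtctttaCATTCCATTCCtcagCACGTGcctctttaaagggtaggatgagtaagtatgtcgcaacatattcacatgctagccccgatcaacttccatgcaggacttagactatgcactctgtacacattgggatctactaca
Ppfia4 (chr1:134344717-134344966, minus strand): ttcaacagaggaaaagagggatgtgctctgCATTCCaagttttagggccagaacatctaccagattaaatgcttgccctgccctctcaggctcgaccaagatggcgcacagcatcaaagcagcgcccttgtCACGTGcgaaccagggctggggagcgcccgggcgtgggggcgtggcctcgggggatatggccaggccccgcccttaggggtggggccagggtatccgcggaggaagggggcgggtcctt
Aars (chr8:111033592-111033841, plus strand): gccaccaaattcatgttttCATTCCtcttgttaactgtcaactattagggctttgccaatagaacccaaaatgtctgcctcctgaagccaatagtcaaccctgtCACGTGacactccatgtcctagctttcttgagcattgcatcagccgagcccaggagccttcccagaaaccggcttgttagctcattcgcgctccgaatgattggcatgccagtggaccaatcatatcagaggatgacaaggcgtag
Mpv17 (chr5:31154252-31154501, minus strand): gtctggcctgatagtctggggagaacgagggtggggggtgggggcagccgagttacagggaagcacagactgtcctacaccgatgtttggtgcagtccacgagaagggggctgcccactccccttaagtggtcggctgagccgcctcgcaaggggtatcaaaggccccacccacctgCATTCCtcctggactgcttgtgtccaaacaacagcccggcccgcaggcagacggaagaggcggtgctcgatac
Sardh (chr2:27247304-27247553, minus strand): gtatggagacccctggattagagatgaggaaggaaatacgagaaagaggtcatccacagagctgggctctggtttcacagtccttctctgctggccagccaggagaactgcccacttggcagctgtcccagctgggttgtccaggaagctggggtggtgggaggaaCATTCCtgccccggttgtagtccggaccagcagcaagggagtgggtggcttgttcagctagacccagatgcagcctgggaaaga
Cwc15 (chr9:14500369-14500618, plus strand): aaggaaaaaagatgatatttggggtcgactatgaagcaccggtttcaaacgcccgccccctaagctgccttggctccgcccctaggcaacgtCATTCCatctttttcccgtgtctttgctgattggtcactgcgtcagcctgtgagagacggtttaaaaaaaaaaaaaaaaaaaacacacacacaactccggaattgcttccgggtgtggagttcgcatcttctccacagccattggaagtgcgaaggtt

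Abl1 encodes a tyrosine kinase that acts on the actin cytoskeleton. The member at its promoter had 54 reads at the WT summit and 45 at the KO summit, and the centre of its CATTCC lay 11 bp from the WT summit. The promoter of Gm30903, a predicted gene, held 2 overlapping copies, CATTCCATTCC, the nearer of them centred 30 bp from the WT summit, and CACGTG after them. Its member had 52 WT and 46 KO reads. At Ppfia4, which encodes a liprin, the distance was 24 bp and the reads were 42 and 36. Aars encodes alanyl-tRNA synthetase, and its member had 39 WT and 42 KO reads, with the motif 69 bp from the summit. At Mpv17, a gene of an inner mitochondrial membrane protein, 63 WT and 35 KO reads were found, and the motif lay 40 bp away. The window of Mpv17 also held CACGTG, in the bases after the start that are not printed. At Sardh, encoding sarcosine dehydrogenase, the reads were 48 and 35 and the distance 55 bp. At Cwc15, which encodes a spliceosome protein, they were 54 and 30, and the motif lay 180 bp from the summit, the farthest of the 7. KO reads were fewer than WT reads at 6 of these promoters, against 92.2% of all members, and more at 1, that of Aars.

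Among the 30 promoter windows with the summit of a member, GGAATG was present in 23.3% (7 windows, 9.93 to 42.3). It was present in 14.7% of all 32851 windows, in 12.2% (9.67 to 15.2) of those with the summit of a narrow WT-only peak, and in 26.2% (23.5 to 28.9) of those with a wider kept peak. The interval of the members holds each of these values. CACGTG was present in 6 windows of members (20%, 7.71 to 38.6), those of Ppfia4, Gm30903, Mpv17, Aars, Otud3 and 3110082I17Rik. It was present in 7.15% of all windows, in 13.8% (11.1 to 16.8) for narrow WT-only peaks and in 11.9% (10.0 to 14.1) for wider kept peaks. The interval of the members holds the last 2 values and lies just above the share of all windows. The other motifs searched were TGANTCA, present in 1 window of members, that of Pold3 (3.33%, against 7.81% of all windows), TGTGGT of RUNX factors (16.7%, against 16.8%) and GGGCGG of SP and KLF factors (56.7%, 37.4 to 74.5, against 35.7%). In windows with other WT summits GGGCGG was as frequent, at 58.7% for narrow WT-only, 67.5% for wider kept and 70.5% for wider WT-only peaks. All were searched on both strands, and neighbouring motifs may share letters at their ends. The 30 windows are too few to order the groups of peaks by these shares, and a match of letters is a description, not a bound site.

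The members sat near the narrow end of both lists. Their WT width was 300 to 400 bp with a median of 366 bp, in a list whose narrowest peak was 300 bp and whose median was 516 bp. Only 13 members were exactly 300 bp wide. The kept share rose with width within the narrow range: it was 2.41% at 300 bp, 3.18% from 301 to 325 bp, 4.11% from 326 to 350 bp, 6.86% from 351 to 375 bp and 8.97% from 376 to 400 bp. Just beyond the limit it was 12.5% from 401 to 425 bp. At exactly 400 bp lay 16 members with a median of 62.5 WT and 42 KO reads, and at 401 bp lay 9 kept peaks with medians of 56 and 45. The highest-scoring member at 400 bp was 80127 bp from Med13l (chr5:118479986-118480385, 85 WT and 53 KO reads). The highest-scoring kept peak at 401 bp, 76908 bp from Gm5294 (chr5:138898456-138898856), had 62 and 48 reads. The limit divides a continuous range of peaks.

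Members were modest sites. Whole reads at each summit were recovered from the authors' deposited fold and −log10 p, and both lists had the same even-spread background of 9.63 reads per 300 bp. The members held 33 to 85 WT reads, with a median of 54 and an interquartile range of 48 to 62. Narrow WT-only peaks had a median of 44 reads and wider kept peaks one of 94. The WT list reached 290 reads, and 8879 WT peaks had more reads than any member. The authors' fold over background at members had a median of 3.92 and their score a median of 99, against 4.74 and 139 in the whole WT list. Since being kept chose the members, these values describe them and support nothing further.

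From 40 to below 80 WT reads, narrow peaks were kept less often than wider peaks with as many reads. Of the narrow peaks 5.55% were kept (5.09 to 6.04), of the wider ones 50.2% and of all WT peaks 39.1%. From 40 to below 50 WT reads the share was 2.95% (122 of 4140, 2.45 to 3.51) for narrow and 4.84% (4.15 to 5.6) for wider peaks. From 50 to below 60 WT reads the share was 9.55% (196 of 2053, 8.31 to 10.9) for narrow and 15% (14.0 to 16.1) for wider peaks. From 60 to below 70 reads it was 18.7% (105 of 562, 15.5 to 22.2) against 33.4% (32.1 to 34.8), and from 70 to below 80 reads 35.9% (46 of 128, 27.7 to 44.9) against 55.6% (53.9 to 57.3). Under 40 reads both were low, at 1.25% for narrow and 1.31% for wider peaks. With the wider peaks weighted to the reads of the narrow ones, the shares were 5.56% for narrow and 8.92% for wider peaks. Weighting on the authors' score gave 10.6% for wider peaks, weighting on their fold 17.8%, and weighting on reads and local background together 8.99%. The member with the most WT reads had 85, and the narrow WT-only peaks with the most reads lay in Hjurp (117 reads over a local background of 48.4), Rnf217 (83 reads) and Ttc3 (83 reads); these 3 were named after their values were seen. The width and the overlap chose the members, so the gap between narrow and wider peaks is a description of these 2 lists.

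**Figure D1:**
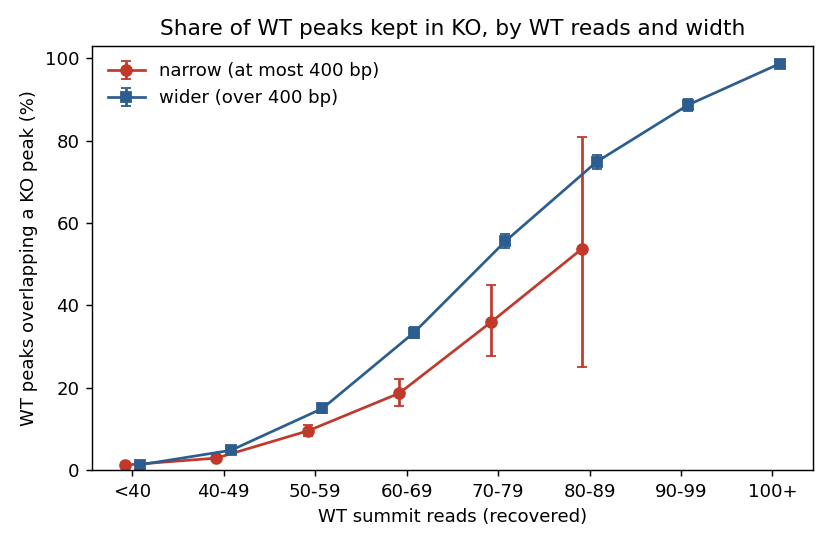
Share of WT peaks that overlap a KO peak (y axis, percent) by the number of reads at the WT summit (x axis), for narrow peaks in red and wider peaks in blue; bars are exact 95% intervals of counting error, and a bin with 1 narrow peak is left out. From 40 to below 80 reads the narrow peaks lie below the wider ones, for example at 18.7% against 33.4% from 60 to below 70 reads.

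KO summits of members held fewer reads than WT summits. The KO reads ranged from 29 to 63 with a median of 41, against the WT median of 54. They were fewer in KO at 464 members, equal at 7 and more at 32. Among all kept WT peaks, 0.44% had more reads in KO, against 6.36% (4.39 to 8.86) of members. With the even-spread background taken off, KO reads were a median 0.717 of WT reads. On the log2 scale this was -0.48, with an interquartile range of -0.73 to -0.28, against -0.89 at wider kept peaks. A ratio of 0.5 or less was found at 24 members (4.77%), against 32.9% of all kept peaks, and a ratio of 2 or more at none of the members and at 0.00699% of all kept peaks. The SD of the log2 ratio between members was 0.326, a spread that the choice of members limits. Read counting alone would give an SD of 0.382. These values come from the contrast that chose the members. A KO peak had at least 29 reads, so a member with few WT reads could enter only with a ratio near or above 1.

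That limit is visible along the range of WT reads. The median log2 ratio of members was 0.05 under 40 WT reads, -0.28 from 40 to below 50, -0.47 from 50 to below 60, -0.76 from 60 to below 70 and -0.86 from 70 to below 80. Wider kept peaks gave -0.05, -0.34, -0.60, -0.78 and -0.89 in the same bins. When wider kept peaks were weighted to the reads of the members, the mean of their bin medians was -0.57, so most of the distance between -0.48 and -0.89 went with the number of WT reads. The highest log2 ratio of all members, 0.47, belonged to the one 4030 bp from Abcd3, with 33 WT and 42 KO reads. Its KO peak also overlapped a second WT peak with 81 reads.

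**Figure D2:**
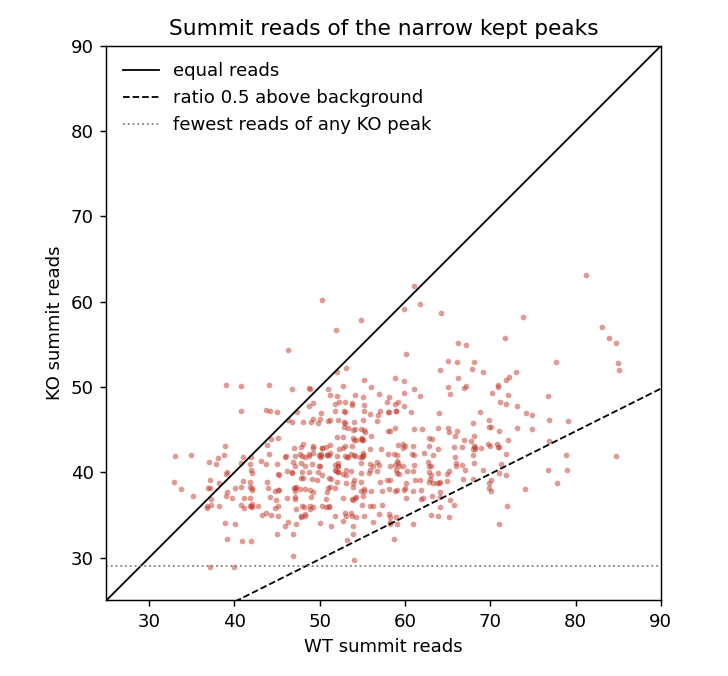
Reads at the WT summit (x axis) and at the summit of the overlapping KO peak (y axis) for the 503 members, 1 point each, moved by up to 0.3 reads to separate ties. Most points lie between the line of equal reads and the dashed line of a ratio of 0.5 above background, and none lies below the 29 reads of the weakest KO peak (dotted).

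Members also differed in the local background at the summit, the number of reads that the peak caller took as the level without enrichment, which is given as a description. In WT the background at members had a median of 12.5 reads per 300 bp, with a range of 9.63 to 28.8. At 422 members (83.9%, 80.4 to 87.0) it was above the even-spread level, against 63.0% of narrow WT-only and 78.5% of wider kept peaks. With those peaks weighted to the WT reads of the members, the shares were 75.6% and 70.4%. From 60 to below 70 WT reads the median background was 13.8 at members, 13.0 at narrow WT-only peaks and 11.5 at wider kept peaks. The KO background at the same sites had a median of 9.63, the even-spread level, and was above it at 202 members (40.2%), against 60% of wider kept peaks. It was lower than in WT at 377 members (75%, 70.9 to 78.7) and higher at 69, and it was lower at 57.7% of wider kept peaks too. The fold therefore moved differently from the reads: the authors' fold was higher in KO at 203 members (40.4%) although more reads were found there at only 32. At wider kept peaks the fold was higher in KO at 7.62%. From 60 to below 70 WT reads the median WT background was 13.0 at all narrow and 11.5 at all wider peaks. The width limit was set on WT peaks only, so it may have chosen members by their WT background. Nothing is read from the lower background or the higher fold in KO. The factor by which the caller had scaled the reads was 0.694 in WT and 0.842 in KO, and its part in these local values was not tested. The sources do not name the control of the caller, so WT and KO backgrounds may rest on different control reads. A difference between them is therefore not read as a property of the sites.

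**Figure D3:**
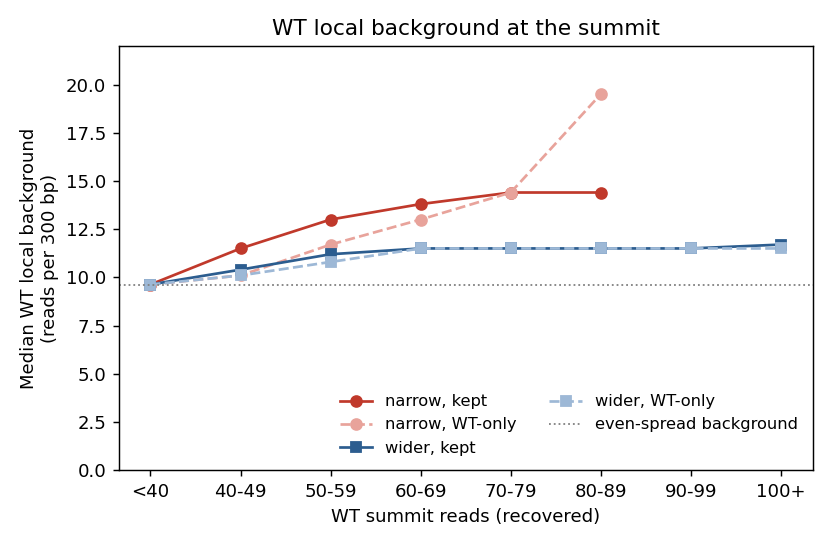
Median WT local background at the summit (y axis, reads per 300 bp) by WT reads (x axis) for narrow kept, narrow WT-only, wider kept and wider WT-only peaks; the dotted line is the even-spread background of 9.63. From 50 reads on, both groups of narrow peaks lie above the wider ones, and the last narrow WT-only point, at 19.5, rests on 6 peaks.

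The KO peaks that overlap members were mostly as narrow. Each member overlapped exactly 1 KO peak, and 502 KO peaks were involved, 3.37% of the KO list. Their width had a median of 339 bp and a range of 300 to 1069 bp, and 425 of the 503 were at most 400 bp wide. The KO peak was wider than the WT peak at 181 members (36.0%, 31.8 to 40.4) and narrower at 317. Among all kept peaks 3.91% had a wider KO peak; members were chosen for a narrow WT peak, so nothing is read from this difference. The KO peak was a shorter stretch within the member at 118 sites and contained the whole member at 53. Summits were close, with a median distance of 37 bp, at most 50 bp at 309 members and over 200 bp at 15 (2.98%, against 3.53% of wider kept peaks). The KO summit lay inside the WT peak at 483 members.

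**Figure D4:**
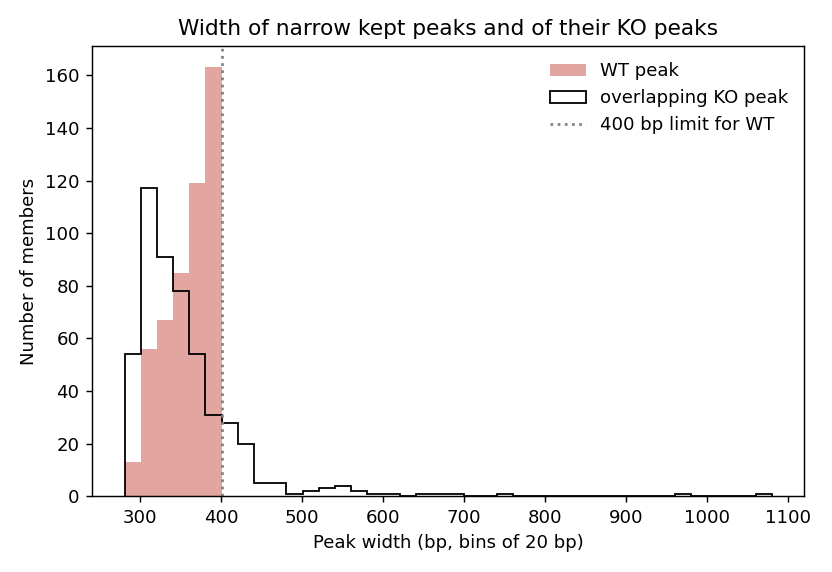
Number of members (y axis) by peak width in bins of 20 bp (x axis), for the WT peak (red) and the overlapping KO peak (black line); the dotted line is the 400 bp limit that chose the WT peaks. The KO peaks have a median of 339 bp and a tail beyond the limit, where 78 of them lie.

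At 13 members (2.58%) the KO peak covered 2 neighbouring WT peaks, so the overlap does not by itself place KO signal on the member. At 11 of them the other WT peak was a wider kept peak. The remaining 2 were members beside each other near Ccl20, which encodes a chemokine for CCR6-bearing lymphocytes and dendritic cells. One (chr1:83119944-83120290) lay 944 bp from the gene with 44 WT reads and the other (chr1:83120354-83120688) lay 1297 bp away with 37. They were 63 bp apart in WT, and a single KO peak of 527 bp with 37 reads overlapped both. The largest distance between summits, 753 bp, was at the member in Zfp704 (chr3:9520488-9520806, 46 WT reads), whose KO peak of 1069 bp also overlapped a WT peak of 682 bp with 78 reads. The KO peak in Ccdc12, 974 bp wide, also spanned 2 WT peaks, which lay 435 bp apart. How common such shared KO peaks are among all kept peaks is not given here, so they are not called particular to members.

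Position in the genome was not used to choose the members. Within 2 kb of gene ends their share was below those of the other groups of peaks: 85 of 503 (16.9%, 13.7 to 20.5) had an end of a protein-coding gene within 2 kb of the summit, against 22.9% (22 to 23.8) of narrow WT-only and 22.8% (22.1 to 23.5) of wider kept peaks. Weighted to the reads of the members these shares were 21.0% and 25.9%, above the interval of the members. For summits inside a promoter window the groups of narrow peaks could not be ordered: the share was 6.16% of members (4.19 to 8.68), 7.05% of narrow WT-only peaks (7.19% weighted), 7.83% of wider kept peaks (8.94% weighted) and 10.0% of all WT peaks. At transcription starts, on chromosomes other than 18, the members' share within 2 kb was 15% (11.9 to 18.5), against 20.8% and 22.4%, or 19.1% and 26.6% after weighting. Inside a gene lay 52.7% (48.2 to 57.1) of members, and the weighted shares of the other groups, 52.9% and 53.4%, fell within that interval. Over 100 kb from any protein-coding gene lay 54 members (10.7%, 8.17 to 13.8), against 7.89% of narrow WT-only and 7.04% of wider kept peaks. After weighting these were 8.0% and 7.96%, just below the interval of the members. The median distance of a member from the nearest gene end was 18580 bp, against 13390 and 12680 bp in the 2 other groups.

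Another WT peak lay within 1 kb of 75 members (14.9%, 11.9 to 18.3), against 18.6% of narrow WT-only and 22.8% of wider kept peaks. At equal reads the value for narrow WT-only peaks, 15.4%, was within the members' interval and that for wider kept peaks, 22.9%, was above it. Within 10 kb the members' share was 60.2% (55.8 to 64.5), and the weighted shares of 58.1% and 64.1% were within its interval. The median gap to the nearest WT peak was 7335 bp at members, 6075 bp at narrow WT-only peaks and 3870 bp at wider kept peaks. That nearest peak was itself kept for 43.9% of members (39.5 to 48.4), against 39.2% and 41.7% in the other groups; at members, this share includes neighbours under the same KO peak. By chromosome, between 3.24% (chromosome 19, 10 of 309) and 8.08% (chromosome 13, 37 of 458) of narrow peaks were members. The interval of chromosome 13 was 5.75 to 11, just above the overall share of 5.55%, while the intervals of the other 19 chromosomes hold it. Chromosome 13 was the highest of 20 compared.

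**Figure D5:**
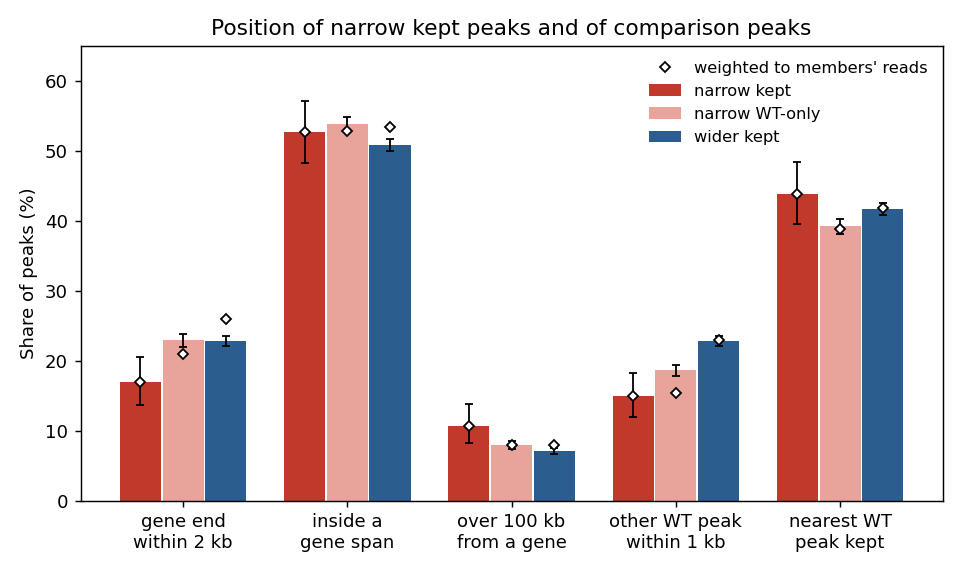
Share of peaks (y axis, percent) with 5 features of position (x axis) for narrow kept, narrow WT-only and wider kept peaks; bars have exact 95% intervals of counting error, and diamonds give the share weighted to the WT reads of the members. Members are at 16.9% near gene ends, below the diamonds of both other groups at 21.0% and 25.9%, and at 52.7% inside genes, where the diamonds lie within the members' interval.

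The members with the highest scores were spread over unrelated genes. The first lay inside Abcb1a, which encodes a drug efflux pump (chr5:8735412-8735802), with 78 WT and 53 KO reads. The second lay inside C8a, a complement gene (chr4:104830556-104830923), with 75 and 45 reads. Magi1, a scaffold gene of cell junctions, held one with 73 and 52 reads (chr6:93863600-93863998). A member 2214 bp from Nkain1 (chr4:130527719-130528102) had 73 and 45 reads. The member of Med13l, a Mediator subunit gene, has been given above. In Dip2c (chr13:9390372-9390771) the reads were 70 and 45, near BC024139 (chr15:76147747-76148141) 70 and 43, and 3352 bp from Gm9949 on chromosome 18 they were 85 and 55. The other 2 of these 10 lay over 100 kb from a gene, at chr12:65364276-65364659 with 85 and 42 reads and at chr3:52784398-52784790 with 84 and 56. KO reads were fewer than WT reads at each of the 10, against 92.2% of all members. Their choice by WT score fixed this, since each had at least 70 WT reads and no member had more than 63 KO reads.

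Among the 158 members with at least 60 WT reads, the highest KO to WT ratio was at a member inside Fam53a (chr5:33604437-33604812), with 61 WT and 62 KO reads and a log2 value of 0.03. Next came the member in Ttc37, a gene of the SKI complex of RNA decay, with 60 and 59 reads. A member at chr13:72405982-72406313, with no gene within 100 kb, had 62 and 60. The member in Osbpl9, encoding a lipid transfer protein, had 64 and 59, and one near Galnt2, encoding an enzyme of protein O-glycosylation, had 60 and 54. At these 5 the KO peak was wider than the WT peak, from 376 bp near Galnt2 to 439 bp in Fam53a, against 36.0% of all members. The 5 were chosen for a high KO to WT ratio of reads, so nothing is read from their widths. The lowest ratio was in Usp42, a deubiquitinase gene (chr5:143732236-143732595), with 71 and 34 reads and a log2 value of -1.33. Its WT local background was 24.5 reads, and the ratio of raw reads was 0.479 (0.308 to 0.730 from counting). In Gsdma, which encodes a pore-forming gasdermin of the epidermis, the reads were 72 and 36 over a WT background of 19.9. In Arl15, a small GTPase gene, they were 78 and 39, and in Fto, which encodes an RNA demethylase, 79 and 40. The fifth of these was the chromosome 12 site named above, with 85 and 42 reads. Counting intervals of the raw ratio were 0.702 to 1.47 in Fam53a, 0.611 to 1.32 near Galnt2 and 0.337 to 0.75 in Fto. Intervals of high and low members thus overlap in part, and the order is only a description.

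Of the members with at least 60 reads, the nearest to a gene end was 2 bp from Zfp213, a zinc finger gene (chr17:23564019-23564385), with 72 WT and 51 KO reads. One 20 bp inside an end of Aimp1, which encodes a part of the multi-tRNA synthetase complex, had 65 and 35 reads and lay 51 bp from a start of the neighbouring gene Tbck. The member 46 bp from Gcc1, a golgin gene, had 77 and 40 reads over the highest WT background of all members, 28.8. Slc25a33, a gene of a mitochondrial nucleotide carrier, had one 73 bp inside its end with 61 and 42 reads, and Cmss1 one at 74 bp with 64 and 37 reads.

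Most genes linked to a member had only 1. Within 100 kb, 449 members had a nearest protein-coding gene and these were 427 genes, 1.97% of 21631. Of these genes 407 had 1 member, 18 had 2, and Eya2 and Gmds had 3. All 34088 linked WT peaks lay at 11365 genes, and whether members cluster at genes was not tested. Eya2 encodes a phosphatase and transcriptional co-activator. Its 3 members, all inside the gene, had 61 WT and 45 KO reads, 66 and 44, and 40 and 38. Gmds encodes an enzyme of GDP-fucose synthesis. It had 2 members inside with 50 and 42 reads and 44 and 39 reads, and 1 outside with 64 and 45. By summed score the next genes were Rtn4, a reticulon gene (68 and 44 reads, 59 and 41), Ppp2r3a, a phosphatase subunit gene (71 and 41, 68 and 43), and Srpk2, a gene of a splicing factor kinase (60 and 38, 64 and 39). KO reads were fewer at all 12 members of these 5 genes, against 92.2% of all members.

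The YAP pathway and clock lists held 1 member each, and the intervals of both shares hold the share over all genes, where 1.32% of the linked WT peaks were members. Of the 223 WT peaks at 36 YAP/TEAD target and Hippo pathway genes 1 was a member (0.448%, 0.0114 to 2.47). Of these 223 peaks 38 were narrow and 113 were kept. Among the 34088 linked WT peaks of all genes 8329 were narrow and 13288 were kept. The member lay inside Wwc2, which encodes a KIBRA relative that activates LATS kinases (chr8:47983402-47983796), with 53 WT and 34 KO reads. Of 124 WT peaks at 25 clock genes 1 was a member (0.806%, 0.0204 to 4.41). It lay 31694 bp outside Arntl, the gene of BMAL1 itself (chr7:113146576-113146900), with 55 and 38 reads. WT background there was 21.6 reads and KO background 9.63, so that the log2 ratio was -0.68 above even-spread background and -0.23 above local background. The KO peak was 480 bp wide and the WT peak 325 bp. Of 114 WT peaks at AP-1 genes 1 was a member, inside Bach2, which encodes a transcriptional repressor, 126 bp from its end, with 65 and 37 reads.

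Genes of inflammation and of the hair follicle had the most members among the lists. Of 184 WT peaks at 50 inflammation and NF-κB genes, 6 were members (3.26%, 1.21 to 6.96), an interval that holds the 1.32% of all linked peaks. Besides the 2 near Ccl20 these were near Nfkbiz, an NF-κB co-regulator gene (77 WT and 46 KO reads), Socs3, a feedback inhibitor of cytokine signalling (59 and 40), Cxcl14, an epithelial chemokine gene (52 and 40), and Tnfaip3, a brake on NF-κB (52 and 40). All 6 lay outside the gene, from 944 bp at Ccl20 to 30755 bp at Tnfaip3. Of 168 WT peaks at 23 hair follicle and stem cell genes 6 were members (3.57%, 1.32 to 7.61). Lgr6, a stem cell receptor gene of the R-spondin pathway, had 2 with 71 and 50 reads and 57 and 46 reads. Its relative Lgr5 had 1 with 48 and 41, Runx1 1 with 63 and 42, and both genes held theirs inside. Plet1 had 1 at 2009 bp with 55 and 42 reads, and Nfib, a stem cell transcription factor gene, 1 at 13960 bp with 53 and 43. KO reads were fewer at 11 of these 12 members, against 92.2% of all members, and equal at the second one near Ccl20.

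The basal keratinocyte list had 3 members among 208 WT peaks (1.44%, 0.298 to 4.16), all inside genes of the anchorage of basal cells to the basement membrane. Itgb4 had 60 WT and 38 KO reads, Lama3 53 and 47, and Itga6 48 and 41. The differentiated keratinocyte list had none among 217 WT peaks (upper bound 1.69%), of which 41 were narrow. Of the 217 peaks 119 were kept, against 13288 of the 34088 linked WT peaks of all genes. The TGF-β and matrix list had none among 113 WT peaks (upper bound 3.21%), and cytoskeleton and adhesion genes had 1 among 155, in Tpm1, a tropomyosin gene, with 55 and 46 reads. Of the lists for other cells and tissues, those for fibroblasts, Langerhans and antigen-presenting cells, melanocytes and T cells had no member among 21, 13, 18 and 11 WT peaks. The neuronal list had 1 of 20, in Camk2a (55 and 42 reads), and the liver list 1 of 9, 1421 bp from G6pc (49 and 40 reads). The interval of each list but one holds the 1.32% of all genes, and for the hair follicle list the lower bound equals it to 3 digits.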

How the data were processed

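YAP ChIP-seq peaks came as 1 deposited list per genotype, with coordinates in mm10. Trimmomatic 0.36, SAMtools 1.5 and MACS2 2.1.1 were used, per the submitters' processing notes. The sources used here do not give the aligner, the control of the caller or what was pooled. The 2 input samples were not used. The deposited score is the whole part of 10 times the −log10 q. The deposited fold (a ratio over the caller's background at the summit) and −log10 p are the authors' values.

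From these, the whole number of reads at each summit and the local background were solved for, with 1 added to both sides of the fold as MACS2 does. A whole number was found for 100% of peaks in both lists (tolerance 0.002 on the log10 p), but for 0.86% of WT and 0.40% of KO peaks with the scaling 3% off. The step was also run on lists simulated with the same formulas, which cannot show whether the deposited values follow them. The WT list held 36576 peaks (28 to 290 reads) and the KO list 14879 (29 to 223). Ratios are log2 of KO over WT reads above the even-spread background. Shares were weighted in bins of 10 WT reads. Peaks were linked to the nearest RefSeq protein-coding gene (GRCm38.p6) within 100 kb. Promoter windows do not cover chromosome 18, where 16 members lie.

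The members, gene lists and comparisons were chosen with earlier results of these data known. The named members were the 10 with the highest score; the 5 highest and 5 lowest ratios and the 5 nearest a gene end among those with at least 60 WT reads; the members of the 5 genes with most members; the highest-scoring member of each list; and the highest-scoring peaks just inside and outside the width limit. The other list members, the promoter and joined-peak members and Abcd3 were named after their values were seen. Alternatives were tried for the overlap, width, thresholds, background, gene distance and weighting. Subtracting the local background, using transcription starts, and weighting by reads and background together were added after seeing the data. Python 3.11.15, numpy 2.4.6, pandas 2.3.3, scipy 1.17.1 and bedtools 2.31.1 were used.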

Additional observations from a re-analysis of the deposited data

How the results depend on the processing

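The number of members and their share of narrow peaks were 170 and 3.50% with a limit of 350 bp, 1126 and 8.50% with 450 bp, 95 and 17.7% within the higher-scoring 50% of the WT list, 37 and 22.4% when WT peaks were cut by score to as many as KO has, and 34 and 0.375% against the higher-scoring 50% of the KO list. So the number rests on the weak part of both lists. With 50% reciprocal overlap 478 members were left, and with summits within 200 bp 488. The median log2 ratio was -0.38 without subtraction, -0.41 above the local background and -0.09 (-0.0863) from the authors' fold. Above the local background KO was higher than WT at 53 members, against 32 by reads alone. Within 1 kb of a gene end lay 11.3% of members (narrow WT-only 17.0%, wider kept 17.3%) and within 5 kb 26.2% (33.7% and 33.6%). Weighting by the authors' fold gave 17.8% kept for wider peaks. Of 31 alternatives to the main values 15 stayed close. A reversed direction was looked for only in those for the KO to WT ratio and for the weighting, and none was found. The members' share near gene ends also stayed below those of the other groups at 1 kb and 5 kb. Of 135 values of named members 3 moved beyond counting error, all above the local background: Usp42 to -0.93, Gcc1 to -0.74 and Arntl to -0.23. Within counting error, the value in Ttc37 changed sign above the local background, from -0.03 to 0.06. That at chr13:72405982-72406313 did so too, from -0.06 to 0.03. Each member overlapped exactly 1 KO peak. Pairing by largest overlap, which is counted among the alternatives and among the 135 values, could therefore change nothing. At 10 kb the clock list had no member. No paired analysis was possible because there is 1 list for each genotype, and for the same reason no replicate could be left out. Motifs within 100 bp of the summit were not run, since no genome sequence was used.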
